A study of Mus musculus with 15 samples.

Results

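Splenic T cells lacking both Helios and Eos were set against wild-type (WT) cells on 6 of the 15 arrays of the study. The 3 arrays of double-knockout cells (dKO, labelled as deficient in both Ikzf2 and Ikzf4) and the 3 WT arrays numbered 1 to 3 were chosen by their titles, because these WT arrays carry the same normalization as the dKO arrays. All cells were sorted as CD4+CD25+ cells, the fraction the labels name Treg, from mouse spleen without any stated treatment or culture. The remaining arrays hold 3 each of Ikzf4-/- (Eos-deficient) cells, of Ikzf2-/- (Helios-deficient) cells and of the WT arrays numbered 4 to 6. They enter the estimate of spread that the fit shares over all groups, and their values are otherwise given only beside the dKO result. Strain, age and sex of the mice, the design of the knockout alleles, whether animals were pooled and whether arrays came from separate mice are not given in the sources used here. The p-values therefore reflect only how far single arrays scatter, and part of that scatter may be technical.

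Regulatory T (Treg) cells restrain immune responses and depend on the transcription factor Foxp3, a high level of the interleukin-2 receptor chain CD25 and inhibitory receptors such as CTLA-4. Treg cells express Helios (Ikzf2) and Eos (Ikzf4), DNA-binding members of the Ikaros group of zinc finger factors. Members of this family bind DNA through a short core motif, can pair with one another and recruit histone deacetylases and other corepressors, and Eos is known as a partner of Foxp3 in gene silencing. Both factors are known from studies of Treg stability.

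Each value is a log2 signal, so a difference of 1 is a doubling. A gene was tested if it reached a group mean above log2 4.96, the median over all probe sets, in any group, which left 10964 genes. A gene passed if limma's p, adjusted over all of these by the Benjamini-Hochberg method, lay under 0.05. Because the groups hold 3 arrays each, it is also said of a gene whether its 3 dKO arrays lay all above or all below the 3 WT arrays.

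The arrays were first read for the identity of the cells. CD4 T cell markers were high on all 6 arrays (Cd3e between 11.34 and 11.48, Cd4 between 9.74 and 10.05), and Foxp3 lay between 10.85 and 11.16. Of 13 B cell markers 12 reached the level for testing, and their mean was 6.65 on WT 1, against 4.65 to 4.91 on the other 5 arrays. The mean of 8 neutrophil markers was likewise 7.04 on WT 1, against 4.41 to 5.72. Of 10 macrophage and dendritic cell markers 3 were tested, all 3 lay lower in dKO (median -0.41), and Adgre1, Itgax, Clec9a, Xcr1 and Cd14 stayed under 4.3 on each of the 6 arrays. The Y-linked gene Eif2s3y was bright on WT 3 (8.17), dKO 2 (7.94) and dKO 3 (8.81), and stood at 3.06 to 3.09 on WT 1, WT 2 and dKO 1. The part of these differences in the results was not tested further than by the values given below. In bulk samples such as these, fewer cells of a type and less RNA per cell cannot be told apart.

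The deleted genes themselves were only partly informative. Ikzf2 read 10.46, 10.74 and 10.76 in WT 1, 2 and 3 and 10.11, 10.16 and 10.59 in dKO 1, 2 and 3. The array labelled dKO 3 thus lay within the WT range, and the difference of -0.37 (SE 0.20) did not pass (adjusted p = 1). Ikzf4 read 7.83, 8.07 and 8.02 in WT and 8.20, 8.07 and 8.11 in dKO, a difference of 0.15 (SE 0.10, adjusted p = 1). The same Ikzf2 signal differed by -0.86 in Ikzf2-/- from the WT arrays normalized with that group. Ikzf4 differed by 0.21 in Ikzf4-/- from WT. Whether Ikzf2 fell less in dKO than in Ikzf2-/- was not tested. No source used here places the probes with respect to the exons removed, and probes elsewhere in a gene check nothing. These signals therefore neither bear out nor contradict the labels. Of the related factors, Ikzf1 (Ikaros) lay at 9.54 to 9.80 in WT and 9.95 to 9.99 in dKO, without overlap (0.27, SE 0.10, adjusted p = 0.83). Ikzf3 (Aiolos) differed by 0.29 (SE 0.13) and Ikzf5 by 0.02 (SE 0.21), both with an adjusted p of 1.

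Few genes differed strongly between dKO and WT cells. Limma called 7 of 10964 genes, 0.0638%: Csf1, Tnfsf8 and Gpm6b rose (0.0274% of genes tested) and Acadl, Hdac9, Islr and Il18r1 fell (0.0365%). At an unadjusted p under 0.05 there were 480 genes (4.38%), of which 262 were higher (2.39%) and 218 lower (1.99%). The arrays of both groups did not overlap for 1048 genes (9.56%), 585 of them higher in dKO (5.34%) and 463 lower (4.22%). Neither the 4.38% nor the 9.56% exceeds what random labels on 3 and 3 arrays would give on average. Lack of overlap in a single gene is therefore weak evidence of a difference. The middle of the distribution hardly moved: the median difference was 0.0039, and the quartiles lay at -0.069 and 0.080. A difference of more than 1 in either direction was seen for 25 genes, and in 12 of them the groups did not overlap.

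**Figure D1:**
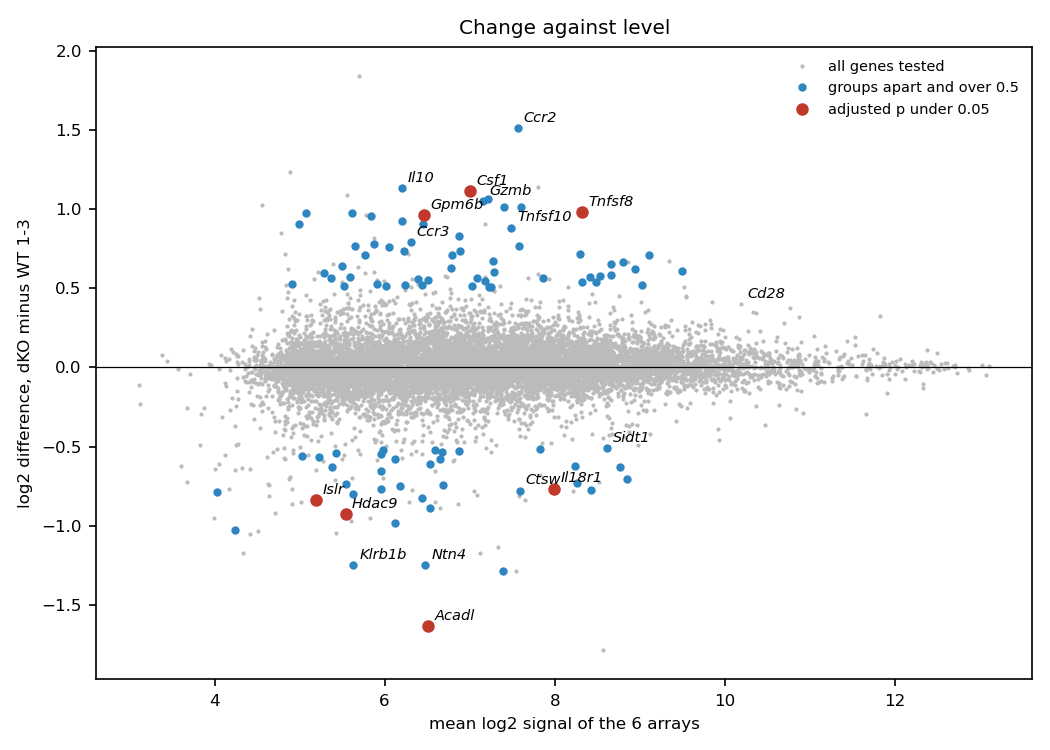
Log2 difference between dKO and WT 1 to 3 (vertical axis) against the mean log2 signal of the 6 arrays (horizontal axis) for the 10964 genes tested; red points are the 7 genes past the threshold, and blue points are genes whose groups do not overlap and differ by more than 0.5. Most genes lie close to 0 at every level, and the blue and red points are 59 genes above 0 and 38 below.

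Csf1 encodes the macrophage growth factor M-CSF. It read 6.56, 6.48 and 6.30 in WT 1, 2 and 3 and 7.49, 7.43 and 7.77 in dKO 1, 2 and 3. Every dKO array was higher than every WT array, and the rise was 2.17-fold (log2 1.12, SE 0.16, limma adjusted p = 0.0406). In Ikzf4-/- arrays Csf1 stood at 6.33 to 6.69, next to the WT level, while the Ikzf2-/- arrays, at 6.87 to 7.56, lay above all of WT 4 to 6 (6.48 to 6.69). None of the other 7 haematopoietic growth factor or receptor genes measured passed. Among them Csf1r, the receptor for M-CSF and a macrophage marker, lay lower in all 3 dKO arrays (4.73 to 4.76) than in WT (4.91 to 5.36), a difference of -0.37 (SE 0.15, adjusted p = 1) near the lower end of the signal range.

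Tnfsf8 encodes CD30 ligand, a membrane-bound member of the tumour necrosis factor family. It read 7.77, 7.89 and 7.85 in WT and 8.94, 8.82 and 8.68 in dKO, without overlap. The rise was 1.97-fold (0.98, SE 0.15, adjusted p = 0.0406). Ikzf4-/- arrays lay between both groups at 8.23, 8.38 and 7.96, and the Ikzf2-/- arrays (7.81 to 8.30) overlapped WT 4 to 6 (7.56 to 8.04). Since Tnfsf8 was chosen on the WT and dKO arrays, nothing is read from the Ikzf4-/- position. Gpm6b, a gene for a membrane glycoprotein best known from neurons, read 5.68, 6.16 and 6.11 in WT and 6.91, 6.88 and 7.05 in dKO. Its rise was 1.95-fold (0.96, SE 0.15, adjusted p = 0.0406). The Ikzf4-/- arrays (5.93 to 6.19) lay below the dKO level, and the Ikzf2-/- arrays (6.23 to 6.60) overlapped WT 4 to 6 (5.96 to 6.50).

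Acadl, which encodes a mitochondrial long-chain acyl-CoA dehydrogenase of fatty acid oxidation, fell the most of the 7. It read 7.44, 7.30 and 7.26 in WT and 5.62, 5.80 and 5.67 in dKO, so that dKO cells had 32.2% of the WT signal (log2 -1.64, SE 0.26, adjusted p = 0.0406). Ikzf4-/- arrays were at the WT level, 7.09 to 7.46. In the arrays that were normalized separately, WT 4 to 6 read 5.78, 5.83 and 5.32 and the Ikzf2-/- arrays 6.02, 5.32 and 6.77. The WT signals of that set were thus near the dKO signals in number, but levels of separately normalized sets are not directly comparable. Acadl lies near Ikzf2 in the genome, and its neighbourhood is described further down.

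Hdac9, a class IIa histone deacetylase gene, read 6.00, 5.98 and 6.03 in WT and 5.26, 4.72 and 5.26 in dKO. The fall was to 52.7% of WT (-0.93, SE 0.14, adjusted p = 0.0406). Ikzf4-/- arrays stood at 5.86 to 6.17 and Ikzf2-/- arrays at 5.80 to 5.86, against 5.83 to 6.21 in WT 4 to 6. The other 9 histone deacetylase genes measured did not pass, and of these only Hdac4 had arrays without overlap (-0.12, SE 0.09, adjusted p = 1).

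Il18r1 encodes the ligand-binding chain of the interleukin-18 receptor. It read 8.52, 8.38 and 8.23 in WT and 7.61, 7.64 and 7.59 in dKO, and the fall was to 58.8% of WT (-0.77, SE 0.12, adjusted p = 0.0445). Both single knockouts lay on the same side of their own WT arrays: Ikzf4-/- at 8.07, 8.13 and 7.95, and Ikzf2-/- at 7.93, 7.94 and 7.82 against 8.68, 8.08 and 8.46. The Ikzf4-/- difference uses the WT arrays on which Il18r1 was chosen, so part of it follows from the choice. The partner chain gene Il18rap lay at 4.90 to 5.29 in WT and 5.24 to 5.37 in dKO (0.20, SE 0.17, adjusted p = 1). Islr, a gene for a secreted protein with leucine-rich repeats best known from stromal cells, was dim throughout, at 5.49, 5.63 and 5.73 in WT and 4.96, 4.69 and 4.68 in dKO. It fell to 55.8% of WT (-0.84, SE 0.13, adjusted p = 0.0406), and the Ikzf4-/- arrays, at 5.21, 5.06 and 4.95, also lay below WT. The same limit of shared WT arrays holds for Islr.

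**Figure D2:**
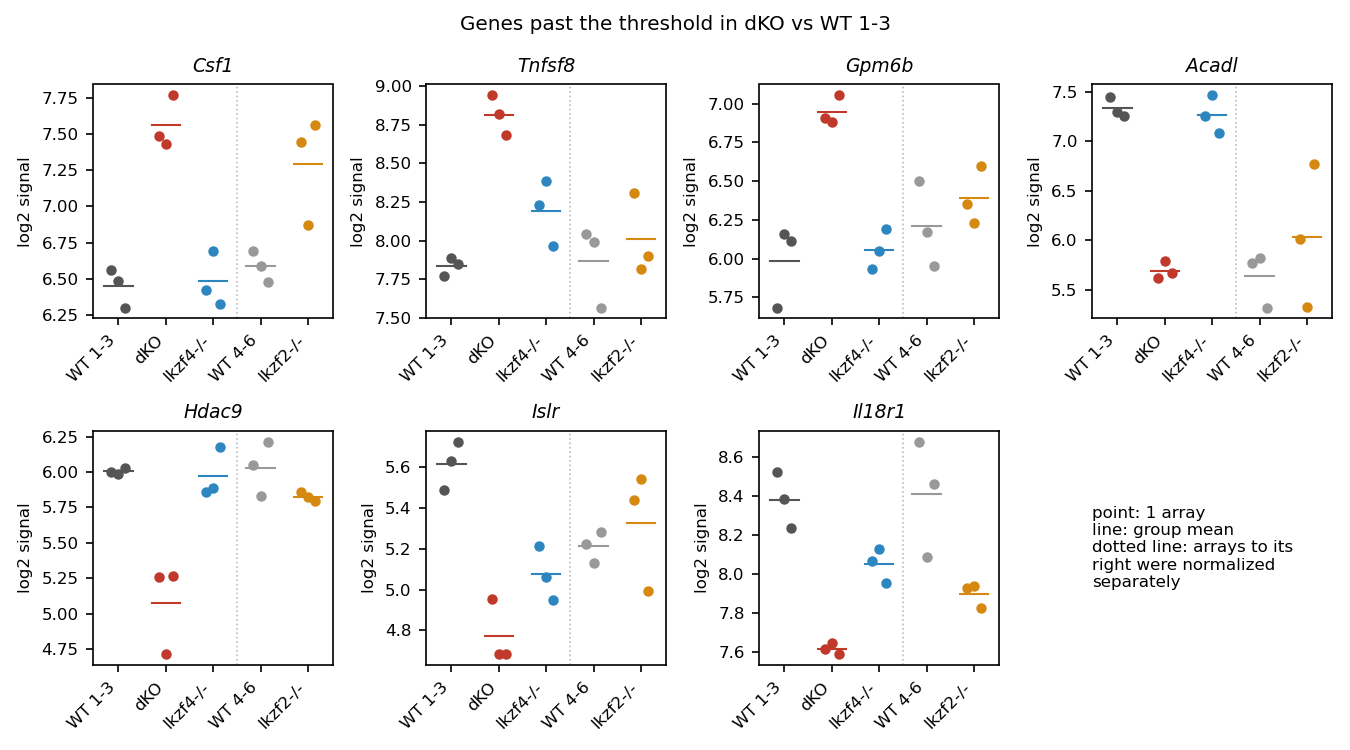
Log2 signal (vertical axes) of the 7 genes past the threshold on all 15 arrays, by group; points are arrays, lines are group means, and arrays to the right of the dotted line were normalized separately. In each panel the 3 dKO points lie clear of the 3 WT 1 to 3 points. For Acadl the WT 4 to 6 points lie near the dKO level, though levels are not directly comparable across the dotted line.

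Both groups hold arrays with the Y-linked signal (2 dKO arrays and 1 WT array) and without it (1 dKO array and 2 WT arrays). Since the groups do not overlap, the sign within each kind of array is fixed for these 7 genes, and only the sizes are given. The differences with and without that signal were 1.31 and 0.96 for Csf1, 0.91 and 1.11 for Tnfsf8, 0.86 and 0.99 for Gpm6b, and -1.52 and -1.75 for Acadl. They were -1.04 and -0.74 for Hdac9, -0.62 and -0.84 for Il18r1, and -1.04 and -0.60 for Islr. With the Eif2s3y signal as a covariate, or without any 1 of WT 1, WT 2, WT 3, dKO 2 or dKO 3, limma called 0 genes (344 to 579 at an unadjusted p under 0.05), and without dKO 1 it called only Podnl1, which is not among the 7.

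The promoter sequences of Csf1 (the largest of the 3 rises), Acadl (the largest fall) and Tnfsf8 are shown because Ikaros family proteins recognise the core GGGAA. Each is the 250 bases before the annotated start, from RefSeq on GRCm38.p6, 5′ to 3′ along the gene, and capitals mark GGGAA (or TTCCC, its reverse complement).
Csf1 (chr3:107760470-107760719, minus strand): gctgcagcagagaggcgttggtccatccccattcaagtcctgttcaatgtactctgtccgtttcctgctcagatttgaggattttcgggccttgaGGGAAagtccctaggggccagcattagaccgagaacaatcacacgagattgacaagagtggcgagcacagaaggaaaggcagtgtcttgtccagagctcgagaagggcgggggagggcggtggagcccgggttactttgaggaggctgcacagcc
Acadl (chr1:66863310-66863559, minus strand): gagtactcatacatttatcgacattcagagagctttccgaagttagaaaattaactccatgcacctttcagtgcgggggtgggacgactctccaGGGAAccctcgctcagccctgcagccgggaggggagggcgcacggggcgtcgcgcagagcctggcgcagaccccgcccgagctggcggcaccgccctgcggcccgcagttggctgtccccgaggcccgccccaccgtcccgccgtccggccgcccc
Tnfsf8 (chr4:63861285-63861534, minus strand): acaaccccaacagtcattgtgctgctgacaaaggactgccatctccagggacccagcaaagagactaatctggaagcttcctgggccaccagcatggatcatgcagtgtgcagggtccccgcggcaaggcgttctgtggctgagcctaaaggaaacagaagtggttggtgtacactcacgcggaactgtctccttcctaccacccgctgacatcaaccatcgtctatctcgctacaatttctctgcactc
Csf1 and Acadl each held 1 copy and Tnfsf8 held none. Over the 7 genes past the threshold 4 windows held the motif (Acadl, Csf1, Il18r1 and Islr), or 57.1%, where 58.4% of 8805 tested genes with a promoter entry and 55.9% of all 27025 entries did. The share among the 7 was thus close to the background, and a match in a window is not a binding site.

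Below the threshold, the rule for naming genes took those with the smallest p among genes with no overlap and a difference over 0.5. Higher in dKO, after the 3 genes that passed, came Hddc3 (0.78, SE 0.13, adjusted p = 0.0577), the integrin gene Itga9 (0.90, SE 0.18, 0.193), the chemokine receptor genes Ccr3 (0.79, SE 0.17, 0.236) and Ccr2 (1.51, SE 0.32, 0.236), and the interferon-inducible GTPase gene Gbp2b (1.01, SE 0.22, 0.236). They were followed by the cytokine signalling suppressor Socs2 (0.54, SE 0.12, 0.258) and Rif1, a gene of replication timing and DNA repair (0.55, SE 0.13, 0.291). Lower in dKO were Sidt1 (-0.51, SE 0.09, 0.0599), the netrin gene Ntn4 (-1.25, SE 0.24, 0.132), the Nogo receptor family gene Rtn4rl1 (-0.58, SE 0.11, 0.132), the cytotoxic cell protease gene Ctsw (-0.78, SE 0.15, 0.155), the cannabinoid receptor gene Cnr2 (-0.77, SE 0.16, 0.193) and the Cripto gene Tdgf1 (-0.61, SE 0.13, 0.236). None of these 13 genes passed, and the third number in each bracket is limma's adjusted p. The WT arrays of Itga9 lay under the level for testing, as given further down.

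Values for the Ikzf4-/- arrays, which lack Eos alone, are given beside those of dKO for 5 genes. Hddc3 differed from WT by 0.63 in Ikzf4-/- and 0.78 in dKO, Ntn4 by -1.21 and -1.25, Tdgf1 by -0.55 and -0.61, Rif1 by 0.44 and 0.55, and Islr by -0.54 and -0.84. Both differences use the WT arrays on which these genes were chosen, so part of any likeness follows from the choice, and nothing is read from it. The same holds for Ikzf4-/- differences from WT given beside other named genes. The direct comparison of dKO with Ikzf4-/- arrays, which lack Eos as well, called 3 of 10964 genes (0.0274%). Csf1 was higher in dKO by 1.08 (SE 0.16) and Ccr3 by 1.12 (SE 0.17), and the RNA transporter gene Sidt1 was lower by -0.58 (SE 0.09), and adjusted p was 0.0457 for each. Acadl (-1.57, SE 0.26) and Hdac9 (-0.89, SE 0.14) missed the threshold at 0.0511 and Gpm6b (0.89, SE 0.15) at 0.0673, while Tnfsf8 stood at 0.62 (SE 0.15, adjusted p = 0.529), Il18r1 at -0.43 (SE 0.12, 0.849) and Islr at -0.30 (SE 0.13, 1). With only the 9 arrays normalized together in the fit, limma called Acadl alone, at an adjusted p of 0.00101. With the replicate block added to that fit it called Acadl (adjusted p = 0.00499) and the GTPase gene Iigp1 (0.0419), and Csf1, Ccr3 and Sidt1 were at 0.151, 0.184 and 0.182.

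Arrays lacking Helios alone, which are in neither mean of the dKO and WT difference but share in the fit's estimate of spread, were set beside these results. In Ikzf2-/- against WT 4 to 6, Csf1 differed by 0.71 (adjusted p = 0.0848), Ccr3 by 1.03 (0.0433) and Sidt1 by -0.46 (0.0673), each in the dKO direction and without overlap. A wider view used all genes whose dKO and WT arrays did not overlap and differed by more than 0.5. Of the 59 higher in dKO, 51 were also higher in Ikzf2-/- against WT 4 to 6, where 54.5% of all genes were, and their median difference there was 0.45, against 0.02 over all genes. In Ikzf2-/- against WT 4 to 6 the arrays did not overlap for 16.2% of all genes tested. In 17 of the 59 the Ikzf2-/- arrays lay all above WT 4 to 6 (10.7% of all genes tested) and in 1 all below. Of the 38 lower in dKO, 17 were also lower in Ikzf2-/-, and their median there was 0.042. In 3 of the 38 the Ikzf2-/- arrays lay all below WT 4 to 6 (5.5% of all genes tested) and in 2 all above. The higher genes thus ran in the same direction in most cases, and the lower genes did not. The spread was widest in the Ikzf2-/- group, with a median SD per gene of 0.193 against 0.0922 to 0.110, and B cell marker means on them ranged from 5.24 to 7.73.

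**Figure D3:**
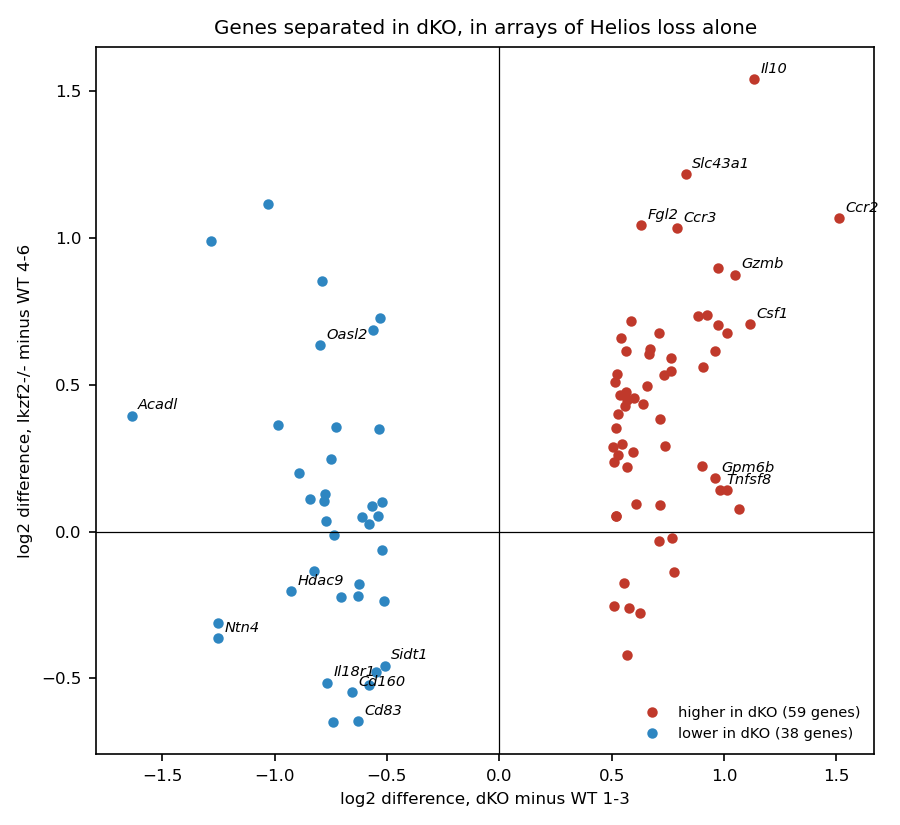
Log2 difference of Ikzf2-/- from WT 4 to 6 (vertical axis) against that of dKO from WT 1 to 3 (horizontal axis) for the 97 genes with no overlap in dKO and a difference over 0.5; each point is a gene. Of the 59 red points on the right 51 lie above 0, with Il10, Ccr2, Ccr3 and Csf1 among the highest, while the 38 blue points on the left spread to both sides of 0.

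Gene lists were then read by role. No list below is called particular to dKO: for each, the count of members with non-overlapping groups is to be read against the 5.34% of all genes higher and the 4.22% lower. Several medians close to 0, such as those of core Treg, corepressor and cholesterol genes, changed sign when 1 array was left out, and no direction is read from them. Core Treg genes differed in both directions. Of 25 measured, 2 lay higher and 3 lower without overlap (5 of 25, against 9.56% of all genes), 0 passed in limma, 1 had an unadjusted p under 0.05 (Socs2), and the median was 0.01. Without WT 2 or without dKO 2, 10 of the 25 had no overlap, where 18.3% and 17.5% of all genes did; such counts can rise but not fall when an array is left out. Foxp3 read 10.99, 11.01 and 10.85 in WT and 11.07, 10.85 and 11.16 in dKO (0.08, SE 0.12), and Il2ra, which encodes CD25, lay at 10.87 to 11.10 in WT and 10.97 to 11.00 in dKO (-0.01, SE 0.12). The inhibitory receptor gene Ctla4 lay at 10.83 to 11.06 in WT and 11.10 to 11.23 in dKO, without overlap (0.20, SE 0.09), and Tnfrsf18, which encodes GITR, differed by 0.07 (SE 0.18). Adjusted p was 1 for these 4 genes. Of the core genes lower without overlap, Satb1 stood at -0.24 (SE 0.12), Bach2 at -0.33 (SE 0.17) and the activation marker Cd83 at -0.63 (SE 0.35).

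Genes of activated or effector Treg cells were mostly higher in dKO. Of 22 measured, 20 were positive, 12 had all dKO arrays above all WT arrays (585 of 10964, or 5.34%, among all genes) and 1 had them all below, and the median was 0.34. In limma 0 passed, and 8 had an unadjusted p under 0.05. Ccr2 read 7.48, 7.06 and 5.89 in WT and 8.0, 8.58 and 8.38 in dKO (1.51, SE 0.32), and the low WT 3 array widened the gap: within arrays without Y-linked signal the difference was 0.73, and with it 2.59. Maf, a transcription factor gene linked to Il10 expression, read 7.07, 7.03 and 6.90 in WT and 7.52, 7.54 and 7.46 in dKO (0.51, SE 0.12, adjusted p = 0.366). The suppressive cytokine gene Il10 read 5.92, 5.93 and 5.05 in WT and 6.48, 7.62 and 6.19 in dKO (1.13, SE 0.48, adjusted p = 1). WT 3 was the lowest array and dKO 2 the highest for Il10.

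Others of this list were the inhibitory receptor gene Lag3 (6.28 to 6.75 in WT, 6.97 to 7.57 in dKO; 0.73, SE 0.23), the chemokine receptor gene Cxcr3 (8.24 to 8.63 and 8.78 to 9.20; 0.59, SE 0.19) and Id2, an inhibitor of E proteins (6.91 to 7.45 and 7.54 to 8.52; 0.76, SE 0.29). The costimulatory receptor gene Icos lay at 10.05 to 10.20 in WT and 10.40 to 10.62 in dKO (0.35, SE 0.15), the secreted effector gene Fgl2 at 6.00 to 6.73 and 6.93 to 7.22 (0.63, SE 0.29) and the granzyme gene Gzmb at 5.81 to 7.11 and 7.22 to 8.17 (1.05, SE 0.54). None of these passed. Over the alternatives the median of the list ran from 0.23 without WT 3 to 0.52 with a covariate for the B cell mean. In Ikzf2-/- against WT 4 to 6 the list median was also 0.34, and in Ikzf4-/- against WT 1 to 3 it was -0.0055.

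Genes of resting or central T cells leaned the other way by smaller amounts. Of 14 measured, 11 were negative, 6 had all dKO arrays below all WT arrays and 0 had them above, with a median of -0.14, which was -0.089 without dKO 3. Limma passed 0, and 1 had an unadjusted p under 0.05. That gene was S1pr1, the receptor that guides T cells out of lymphoid organs, at 10.99 to 11.15 in WT and 10.70 to 10.83 in dKO (-0.29, SE 0.13, adjusted p = 1). The quiescence factor gene Klf2 lay at 8.12 to 8.21 in WT and 7.89 to 8.07 in dKO (-0.15, SE 0.09), while Foxo1 (-0.15, SE 0.09) and Lef1 (-0.15, SE 0.11) overlapped. Il7r, the interleukin-7 receptor gene, ran against the list at 0.34 (SE 0.23).

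**Figure D4:**
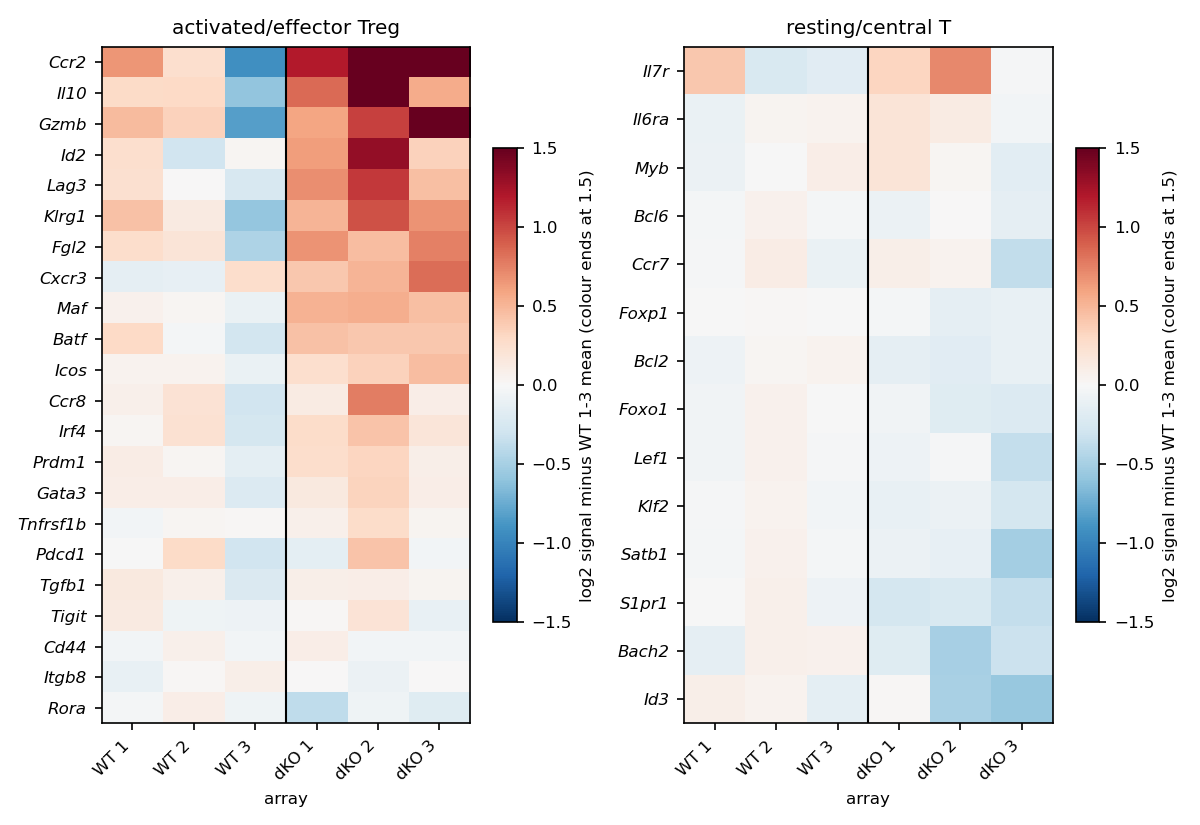
Log2 signal of each array minus the WT 1 to 3 mean (colour, ending at 1.5) for 22 activated or effector Treg genes (left) and 14 resting or central T cell genes (right), with arrays in columns and genes in rows. In the left panel the dKO columns are mostly red, with WT 3 the palest or bluest for Ccr2, Il10 and Gzmb; in the right panel the differences are smaller and mostly blue in dKO.

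Ligands and receptors of the tumour necrosis factor family were read apart. Of 10 ligand genes, 1 rose (Tnfsf8), 3 lay higher without overlap, 0 lay lower, and the median was 0.25, which was 0.09 without dKO 2. Tnfsf10, which encodes the death ligand TRAIL, read 7.25, 7.12 and 6.77 in WT and 7.84, 8.16 and 7.78 in dKO (0.88, SE 0.21, adjusted p = 0.359). Tnfsf9, the 4-1BB ligand gene, read 5.00, 4.87 and 5.11 in WT and 5.13, 5.95 and 5.68 in dKO (0.59, SE 0.18, adjusted p = 0.724), with dKO 1 close to the WT arrays. Tnfsf11, which encodes RANKL, overlapped (0.29, SE 0.13). Of 18 receptor genes 2 lay higher and 0 lower without overlap and 0 passed, with 1 higher and 2 lower at an unadjusted p under 0.05 (Tnfrsf23, and Tnfrsf25 and Fas), and the median was -0.10, which was -0.037 without WT 1. Tnfrsf25, which encodes DR3, differed by -0.30 (SE 0.11, adjusted p = 0.895), and Fas by -0.20 (SE 0.08).

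Receptors for chemokines and other homing cues split by gene. Of 22 measured, 6 lay higher and 2 lower without overlap, 0 passed, and the median was 0.16, which was 0.096 without dKO 2. Ccr3, a receptor best known from eosinophils, read 6.00, 6.05 and 5.68 in WT and 6.71, 7.05 and 6.34 in dKO. Gpr15, a receptor for homing to the colon, read 5.60, 5.75 and 5.65 in WT and 6.75, 6.22 and 6.33 in dKO (0.76, SE 0.21, adjusted p = 0.623), and it differed by 0.51 in Ikzf4-/-. Gpr183, an oxysterol receptor gene, stood at 0.36 (SE 0.10), and Ccr4, a receptor for skin homing, at 0.67 (SE 0.31), with WT 3 its lowest array (8.14). Cx3cr1 overlapped at -0.52 (SE 0.18). Among 13 integrin genes, 3 lay higher without overlap and 0 lower: Itga9 (4.40 to 4.80 in WT, 5.19 to 5.71 in dKO), Itgb1 (9.06 to 9.33 and 9.46 to 10.13; 0.61, SE 0.25) and Itgb2 (0.12, SE 0.07). These 2 beta chains pair with many alpha chains, and Itga9 pairs with the Itgb1 product. All 3 WT arrays of Itga9 lay under the level for testing of 4.96, so of dKO and WT only dKO reached it.

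Costimulatory and inhibitory receptor genes differed in both directions. Of 18 measured, 4 lay higher and 2 lower without overlap, 0 passed, and the median was 0.06. Cd28, the main costimulatory receptor gene of T cells, read 9.92, 10.02 and 10.04 in WT and 10.33, 10.43 and 10.42 in dKO (0.40, SE 0.10, adjusted p = 0.359). Cd160 read 6.43, 6.34 and 6.06 in WT and 5.63, 5.44 and 5.80 in dKO (-0.66, SE 0.14, adjusted p = 0.258), and it also differed by -0.55 in Ikzf2-/-. The SLAM family had 9 genes measured, with 2 higher and 1 lower without overlap, 0 past the threshold and a median of 0.04. Slamf6 read 9.38, 9.21 and 9.37 in WT and 9.60, 9.81 and 9.91 in dKO (0.45, SE 0.09, adjusted p = 0.193), and Cd48 stood at 0.24 (SE 0.10). The member lower without overlap was Cd244a (-0.34), which was dim, with a mean signal of 4.76. Of 18 T cell receptor and signalling genes only Cd28 had an unadjusted p under 0.05 in limma, and the median was 0.05.

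Helper cell cytokines were mostly at low or equal level. Of 7 effector cytokine genes measured, Il10 and Ifng lay higher without overlap, and the median was 0.03. Ifng, the interferon-gamma gene, read 4.87, 5.44 and 5.21 in WT and 5.91, 5.49 and 6.05 in dKO (0.64, SE 0.21, adjusted p = 0.757), so that WT 2 and dKO 2 were nearly equal. Tbx21, the T helper 1 regulator, overlapped (0.35, SE 0.15), and Gata3, that of T helper 2 cells, stood at 0.20 (SE 0.18). Over all 17 helper lineage regulators the median was 0.00, with 2 higher and 1 lower without overlap, and over 12 cytotoxic granule genes it was 0.06, also with 2 higher and 1 lower. Of 20 genes of the interleukin-2 and STAT5 pathway, 15 were negative, the median was -0.04 and 0 passed. Socs2, a STAT5 target, read 8.13, 8.16 and 7.85 in WT and 8.63, 8.52 and 8.61 in dKO, and it differed by 0.66 in Ikzf2-/-. Il4ra lay lower without overlap (-0.27, SE 0.09, adjusted p = 0.84). Among 9 genes of the interleukin-1 and interleukin-18 receptor family, 2 lay lower without overlap (Il18r1 and the decoy receptor gene Sigirr, -0.19, SE 0.09), and the median was -0.12.

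The corepressors that Ikaros family proteins recruit were flat. Of 19 genes, including Chd4 (-0.04, SE 0.09) and Rbbp4 (-0.11, SE 0.11) of the NuRD complex, all lay between -0.11 and 0.10. Neither direction held a member without overlap, and in limma 0 passed and 0 had an unadjusted p under 0.05. Immediate early genes, which report recent receptor stimulation, had a median of -0.05 over 20 members, with 0 past the threshold, 1 at an unadjusted p under 0.05 (Zfp36, -0.22, SE 0.09) and 0 without overlap.

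Interferon-linked genes were read as a general list and as the GTPase families. Of 25 interferon response genes, 2 lay higher and 1 lower without overlap, with a median of -0.03. Oasl2, an interferon-induced gene of the oligoadenylate synthetase family, read 6.22, 5.85 and 6.01 in WT and 5.55, 4.78 and 5.35 in dKO (-0.80, SE 0.20, adjusted p = 0.385), differed by -0.85 in Ikzf4-/- and by 0.63 in Ikzf2-/-. Of 8 genes for interferon-inducible GTPases, which act against intracellular pathogens, 7 were positive and 2 lay higher without overlap, with a median of 0.25. Gbp2b, named above with a larger rise than any of these 8, was not among them. Iigp1 read 8.23, 8.23 and 8.54 in WT and 9.09, 8.72 and 9.17 in dKO (0.66, SE 0.19, adjusted p = 0.668), and Gbp3 stood at 0.45 (SE 0.13, 0.709). Probes of such near-identical family members may share signal, so these values are uncertain as to the member.

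For cell cycle genes the dKO arrays differed among themselves. Of 26 mitotic genes 25 were positive and the median of 0.39 was the highest of all lists, yet 0 had groups without overlap, 0 passed in limma and 1 had an unadjusted p under 0.05 (the spindle checkpoint gene Bub1). Their mean was 6.21 on dKO 1, 7.0 on dKO 2 and 6.80 on dKO 3, against 6.32, 6.49 and 6.12 in WT. The median of the mitotic list was 0.77 in Ikzf2-/- against WT 4 to 6 and -0.14 in Ikzf4-/- against WT 1 to 3. The proliferation marker Mki67 read 7.25, 8.60 and 8.43 in dKO and 7.65, 7.72 and 7.14 in WT (0.59, SE 0.33). Without dKO 1, 20 of the 26 lay higher without overlap, where 9.2% of all genes did, and the median was 0.61; without dKO 2 the median was 0.20 and 0 did. Both high arrays, dKO 2 and dKO 3, also carried the Y-linked signal, and its part in the difference was not tested. For 27 DNA replication genes the median was 0.12, again with 0 members without overlap. Without dKO 2 that median was 0.016, and without dKO 1, 7 of the 27 lay higher without overlap, where 9.2% of all genes did.

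Metabolic lists had medians near 0. Of 18 fatty acid oxidation genes 1 fell (Acadl), 3 lay lower and 1 higher without overlap, and the median was -0.03. The thiolase gene Acaa2 read 8.12, 8.11 and 8.03 in WT and 7.75, 7.74 and 7.35 in dKO (-0.48, SE 0.13, adjusted p = 0.629), and the short-chain dehydrogenase gene Acads 6.28, 6.20 and 6.46 in WT and 5.95, 5.97 and 6.02 in dKO (-0.33, SE 0.09, 0.668). In Ikzf4-/- these genes stood at -0.35 and -0.20. Cpt1a, which encodes the carnitine transferase at the entry to the pathway, overlapped (-0.33, SE 0.19). Of 33 oxidative phosphorylation genes 29 were positive, with a median of 0.04, 0 past the threshold, 0 at an unadjusted p under 0.05, and 5 higher and 1 lower without overlap. Without WT 1, 14 of the 33 lay higher without overlap, where 11.2% of all genes did, and the median was 0.078. Glycolysis (15 genes) and cholesterol synthesis and uptake (23 genes) had medians of -0.03 and 0.02.

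**Figure D5:**
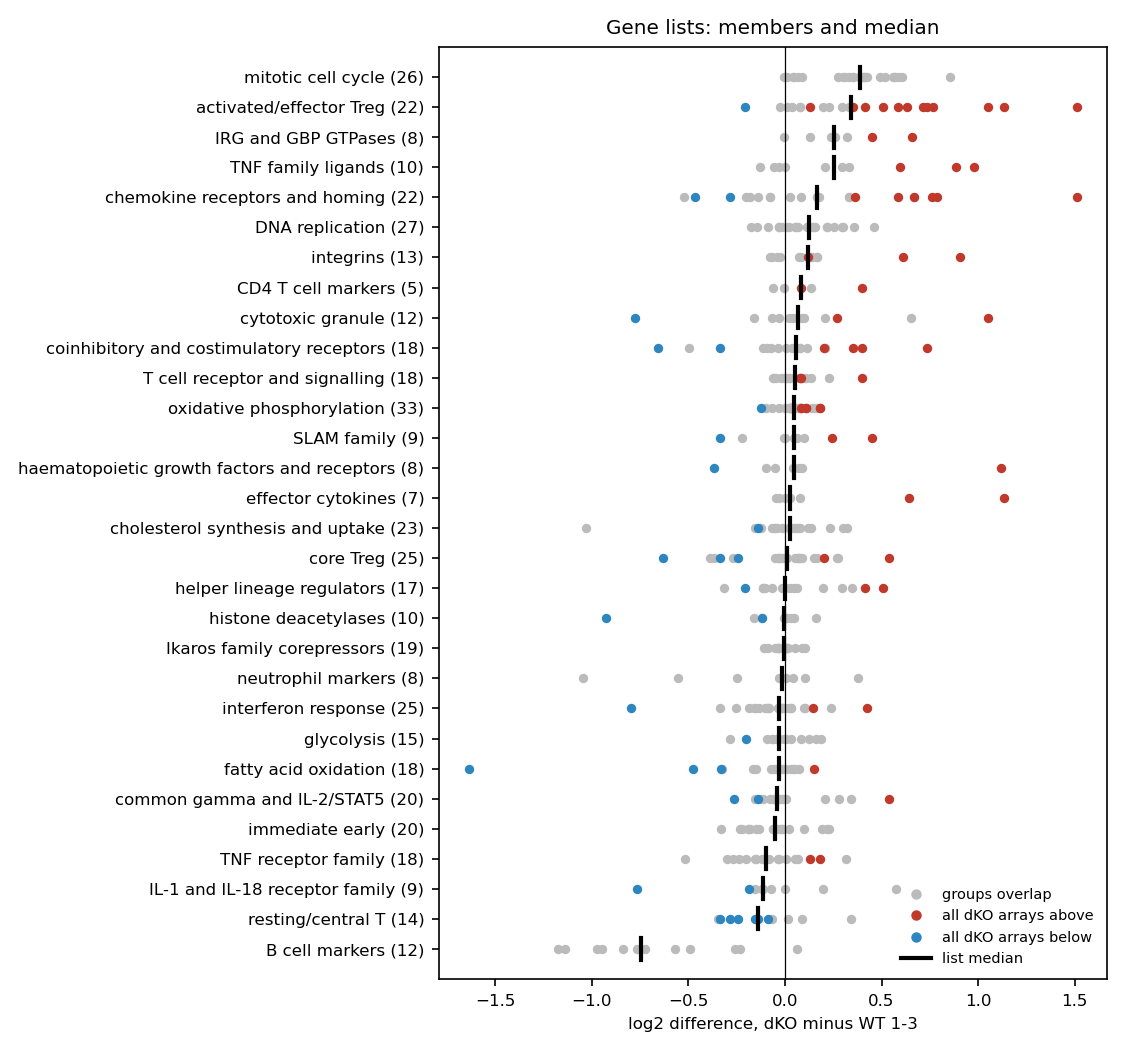
Log2 difference between dKO and WT 1 to 3 (horizontal axis) for the measured members of the 30 gene lists with at least 5 of them (number in brackets); points are genes, coloured where all dKO arrays lie above or below all WT arrays, and black bars are list medians. Mitotic genes have the highest median (0.39) but no coloured point, activated or effector Treg genes have 13 of 22, and B cell markers have the lowest median with no coloured point.

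The low end of the lists belonged to markers of other cells. B cell markers had a median of -0.75, which was 0.0079 without WT 1, with 0 of 12 members without overlap, 0 past the threshold in limma and 0 at an unadjusted p under 0.05, and Ms4a1 (CD20) read 7.30 on WT 1 and between 3.60 and 4.01 on the other 5 arrays. Neutrophil markers had a median of -0.01, which was -0.61 without WT 2 and 0.20 without WT 1. Without WT 2, 3 of 8 lay lower without overlap, where 7.71% of all genes did. Without WT 1, 4 of 8 lay higher without overlap, where 11.2% of all genes did. Of these markers, S100a8 read 10.63 on WT 1, 4.67 and 5.66 on WT 2 and WT 3, and 6.56 to 7.96 in dKO. Ltf (3.96 to 4.38) and Mpo (4.01 to 4.68) lay under the level for testing on all 6 arrays. Lcn2 lay above it only on WT 1 (5.67). The neutrophil median and counts thus include genes that were dim in both groups. Cd8b1, the 1 CD8 T cell gene measured, stood at 7.03 to 7.38 in WT and 6.46 to 7.04 in dKO, and Eomes, the 1 NK cell gene tested, at 6.49 to 6.72 and 6.42 to 6.58. Among the NK genes too dim to test, Klrd1 read 5.48 on dKO 2 and 3.54 to 4.12 on the other 5 arrays, and Ncr1 stayed under 4.1 on all 6. The erythroid gene Alas2, the 1 of its list that was tested, stood at -0.31 (SE 0.13). With a covariate for the B cell mean, 6 genes passed, of which 4 were among the 7 (Acadl, Csf1, Hdac9 and Islr).

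Genes next to the deleted loci were read last, by RefSeq gene order. Of the 10 genes on each side of Ikzf2, 7 of 20 were tested, and 2 of these 7 had groups without overlap, where 9.56% of all genes did. Acadl, the fifth gene before Ikzf2, fell as given above. Lancl1, the third gene before Ikzf2, differed by -0.36 in dKO (SE 0.10, adjusted p = 0.668) and by 0.28 in Ikzf4-/- and 0.00 in Ikzf2-/-. The other 5 lay between -0.08 and 0.14. On both sides of Ikzf4, 19 of 20 genes were tested, with a median of -0.058, and 0 passed in limma or had an unadjusted p under 0.05. Groups did not overlap for 2 of these 19 (Esyt1, -0.11, and Dnajc14, -0.08), which is close to the 9.56% among all genes.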

How the data were processed

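The authors deposited log2 signals of 15 single-colour Affymetrix whole-transcript mouse arrays, computed by RMA in Affymetrix Expression Console 1.3.1, per the submitters' processing notes. This method removes background, gives arrays run together the same distribution and combines probes, which compresses changes of dim genes. Pairs of arrays shared exactly equal values in 2286 probe sets on average among WT 1 to 3, Ikzf4-/- and dKO, in 34.4 among WT 4 to 6 and Ikzf2-/-, and in 0.0741 across, so each knockout was compared within its own set. This division is inferred. Array medians ran from 4.82 to 5.01, and the number of arrays limits precision.

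Of 35556 probe sets, 21789 had 1 symbol in the platform annotation (21698 updated through Entrez identifiers to GRCm38.p6), 1621 had several and 12146 none listed. The brightest probe set stood for each gene. All 15 arrays entered limma 3.58.1 (R 4.3.3; 5 group means; 10 residual and 3.72 prior degrees of freedom), tested on simulated data. The 34 lists hold 552 genes, 447 of them measured. Named were Foxp3, Il2ra, Ctla4, Tnfrsf18 and Ikzf1 to Ikzf5, genes past the threshold, the 10 per direction with the smallest p among genes without overlap and a difference over 0.5, and up to 6 members per list by p with up to 3 more as values. The comparison, lists and rules were chosen with earlier results of these data known.

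Replicate numbers are shared between groups. Deviations from group means of same-numbered arrays correlated at 0.428, 0.196 and 0.267 between dKO and Ikzf4-/-. Between dKO and WT they correlated at 0.0708, 0.045 and 0.173. Arrays of unlike number were not compared in this way, so whether the numbers pair arrays was not tested. Alternatives covered the filter, normalization, array weights, probe set summary, covariates, the replicate block and each array left out. List counts without each array and differences within arrays of like Y-linked signal were chosen after seeing the data.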

Additional observations from a re-analysis of the deposited data

Results flagged for a closer look

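For 3 genes the change from WT differed between both genotypes that lack Eos, by limma's direct test of dKO against Ikzf4-/-. Ccr3 was higher in dKO by 1.12: it stood at 0.79 above WT in dKO and -0.33 in Ikzf4-/-. Csf1 was higher by 1.08, with changes of 1.12 and 0.03. Sidt1 was lower, by -0.58, with changes of -0.51 and 0.07. In each case no dKO array overlapped an Ikzf4-/- array, and these differences rest on the fit of all 15 arrays: with only the 9 arrays normalized together none of the 3 had an adjusted p under 0.05, without or with the replicate block.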

How the results depend on the processing

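All 7 genes past the threshold in dKO against WT kept their direction in every alternative in which they were tested. Because their groups do not overlap, leaving out an array or changing the filter or the array weights could not alter that direction. The count of genes past the threshold moved between 0 and 21. It was 0 without a filter, at equal array medians and with the Eif2s3y covariate (749, 410 and 579 genes at an unadjusted p under 0.05). It was 1 with only the groups compared, 2 when quantile-normalized again, 4 under the stricter filter and 21 with array weights, which include all 7. With the mean of a gene's probe sets the same 7 passed. With only the 9 arrays normalized together in the fit 6 passed: Acadl, Csf1, Il18r1, Islr and Tnfsf8, which are among the 7, and Gbp2b. With the replicate block 1 gene passed (Acadl), though whether the numbers pair dKO with WT was not tested. Leaving out 1 array gave 0 to 9 genes: without dKO 1 or WT 5 the count was 1, without WT 4, Ikzf2-/- 2 and Ikzf2-/- 3 it was 5, 9 and 8, and without any other array 0 (344 to 553 at an unadjusted p under 0.05). For dKO against Ikzf4-/- the 3 genes became 0 without a filter, when quantile-normalized again, at equal array medians and with the Eif2s3y covariate (573, 331, 313 and 394 at an unadjusted p under 0.05), 1 with only the groups compared or with the 9 arrays normalized together, 7 with the mean of a gene's probe sets and 21 with array weights. With the replicate block 2 passed (Acadl and Iigp1), and leaving out 1 array gave 0 to 11. Over the alternatives adjusted p ran from 0.000203 to 0.236 for Acadl and from 0.000689 to 0.189 for Csf1. Of 744 values of named genes under an alternative, 0 reversed a call, 130 lost it and 17 gained one. Only the 7 genes past the threshold could lose a call, so all 130 losses were theirs. Acadl and Csf1 passed in 9 of 26 alternatives each, Tnfsf8 in 8 of 26 and Il18r1 in 7 of 26. Islr passed in 6 of 25, and Gpm6b and Hdac9 in 5 of 25 each.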

Other observations

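Several of the largest differences outside the lists rested on arrays within a group, and these genes were chosen after their values were seen. Ctse, the cathepsin E gene, read 10.22 and 10.24 on WT 1 and WT 2 but 7.93 on WT 3, against 7.49 to 7.94 in dKO, a mean difference of -1.79 with an adjusted p of 1. Gm4956 read 9.31, 6.32 and 6.08 in WT and 6.70, 8.98 and 9.46 in dKO. Cd63 read 7.28 on WT 2 and 3.62 to 4.04 on the other 5 arrays. The class II antigen presentation gene H2-Ab1 lay lower in all dKO arrays (6.24 to 7.14, against 7.25 to 9.48 in WT), and it was highest on WT 1, where B cell markers were also brightest.

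Other genes outside the lists had groups without overlap. Klrb1b, a lectin-like receptor gene, read 6.70, 5.71 and 6.36 in WT and 5.10, 4.69 and 5.23 in dKO (-1.25, adjusted p = 0.291). Wls, which encodes a carrier for Wnt secretion, read 7.09, 7.17 and 7.05 in WT and 8.68, 7.77 and 7.88 in dKO (1.01, adjusted p = 0.668). Slc43a1, an amino acid transporter gene, differed by 0.83 in dKO and by 1.22 in Ikzf2-/- against WT 4 to 6. With every probe set tested separately, named or not, 0 of 19229 passed in limma, and of 7136 with no or several symbols 370 had an unadjusted p under 0.05.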
